A study of Mus musculus with 5 samples.

Results

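The genes described here are 2 cold-inducible RNA-binding protein genes, Cirbp and Rbm3, and 8 heat shock protein genes, Hspa1a, Hspa1b, Hspa8, Hspa5, Hsp90aa1, Hsph1, Hspb1 and Dnajb1. They were chosen by symbol from the deposited counts, 10 of 54113 named entries. RNA-seq was performed on tumours from C57BL/6 mice kept for 2 weeks at 30 °C (3 tumours) or at 4 °C (2 tumours), and the labels give no other treatment, allele, sex or age for these samples. The tumours are labelled as colorectal cancer (CRC), and the methods of the study name MC-38, a mouse colon adenocarcinoma cell line, as its mouse CRC model. The study grew MC-38 under the skin and also in the liver of immunocompetent hosts, and its RNA-seq methods name no site. Tumours grown from MC-38 derive from 1 cell line and also hold cells of the host. The comparison asks whether a low housing temperature of the host was accompanied by a different level of these temperature-responsive transcripts in the tumour. The study also put a probe into tumours and reports no change of their temperature between cold-housed and warm-housed mice. Its methods place those readings at room temperature, and whether the sequenced tumours were among those measured is not given. A fall in the temperature of the tumour cells is therefore not assumed here. No source says whether each tumour came from a separate mouse, so the p-values measure the spread between these 5 samples, and in bulk tissue fewer cells of a type and less RNA per cell cannot be told apart.

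Cells answer a moderate fall in their own temperature by making more CIRBP and RBM3, small glycine-rich proteins that bind RNA and help translation and mRNA stability at lower temperature. They answer heat, misfolded proteins or other stress through heat shock factor 1 (HSF1), a transcription factor that binds heat shock elements, which are inverted repeats of GAA, and activates chaperone genes. Chaperones of the Hsp70 family hold and release unfolded proteins with the help of Hsp40 proteins and exchange factors, while HSPA5, the Hsp70 of the endoplasmic reticulum (ER), belongs to the unfolded protein response and is controlled from an ER stress element instead.

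The promoters are shown because the motifs of these factors can be read in them. Windows of 250 bases before and 50 bases after the annotated start were available from RefSeq (GRCm38.p6) for 7 of the 10 genes, and not for Rbm3, Hspa8 and Hsp90aa1. The 250 bases before the start were searched on both strands for a heat shock element of a pair of units (GAANNTTC or TTCNNGAA), for one of 3 units in alternating orientation, for the ER stress element (CCAAT, 9 bases of any kind, CCACG) and for the mild-cold response element described for Cirbp (TCCCCGCC), the last added after the windows had been seen. Capitals mark the match in each stretch, which is shown 5′ to 3′ on the strand of the gene.
Cirbp, chr10:80167589-80167609, plus strand: ctgTCCCCGCCtcctagtcgc
Hspa1a, chr17:34972243-34972270, minus strand: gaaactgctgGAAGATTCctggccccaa
Hspa1b, chr17:34959325-34959352, minus strand: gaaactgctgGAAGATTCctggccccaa
Hsph1, chr5:149636352-149636379, minus strand: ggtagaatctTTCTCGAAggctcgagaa
Hspb1, chr5:135887792-135887839, plus strand: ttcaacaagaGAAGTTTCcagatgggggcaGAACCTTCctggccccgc
Hspa5, chr2:34772020-34772048, plus strand: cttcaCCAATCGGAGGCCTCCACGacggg

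The stretches of Hspa1a and Hspa1b were identical, and of the 250 bases before their starts 247 were the same in both genes. Their match began 104 bases before the start. The heat shock element of a pair of units was thus found in Hspa1a, Hspa1b, Hsph1 and Hspb1, the last with 2 matches, whereas 12.8% of all 32851 windows held one. Among the 7 genes with a window, the ER stress element was found only in Hspa5 and in 0.113% of all windows. The mild-cold response element was found in the first of the windows of Cirbp and, on the other strand, in Hspa1a and Hspa1b, and 4.64% of all windows held it. The windows of Dnajb1 held none of these motifs, and the element of 3 units was in none of the 7 genes and in 0.466% of all windows. A match describes these letters only and is not evidence of binding. Only exact letters were searched, so a missing match does not show that a gene lacks an element.

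Sequencing gave 16191708 to 20320525 counts per tumour on named genes. Levels are in CPM, the count of a gene in a library scaled to 1000000 such counts, and 3 counts, used as the floor, equalled 0.148 to 0.185 CPM. All 10 genes lay above it in every tumour. The library of 30 °C replicate 2 stood apart, since pancreatic acinar transcripts summed to 268266 CPM in it, to 2649 CPM in 4 °C replicate 2 and to between 20.8 and 82.5 CPM in the other 3 tumours, and its scaling factor by trimmed mean of M values (TMM) was 0.738 against 1.03 to 1.13 elsewhere. Values are therefore given as CPM on total counts and, where it matters, as TMM-scaled CPM, which adjusts for the share that a few very abundant transcripts take. Sums of markers of other cells also varied between tumours, and of those given here only the sum of the T cell markers separated the groups. Neutrophil markers, of which 12 of 12 tested had negative fold changes, summed to 3460 to 14233 CPM at 30 °C and 2772 to 4279 CPM at 4 °C. B cell markers, of which 8 of 8 had positive ones, summed to 1245 to 3542 CPM at 30 °C and 3078 to 3833 CPM at 4 °C, and T cell markers, also 8 of 8, to 231 to 492 CPM and 629 to 640 CPM. Erythroblast markers (9 of 10 lower) summed to 3510 to 5997 CPM at 30 °C and 3351 to 3557 CPM at 4 °C. Fibroblast and smooth muscle markers (7 of 10 higher) summed to 465 to 1298 CPM and 901 to 1571 CPM. Epithelial and carcinoma markers (8 of 8 tested lower), which should mark the labelled tissue, reached only 19.8 to 127 CPM in sum. Krt8, the most abundant of them, had 36.3, 39.6 and 4.63 CPM at 30 °C and 3.17 and 59.7 CPM at 4 °C. Krt19, a keratin of simple epithelia, was at 0 in 30 °C replicate 3 and 4 °C replicate 1. Markers of splenic mesenchyme (5 of 6 higher) summed to 218 to 747 CPM at 30 °C and 739 to 872 CPM at 4 °C. Most of this sum was Coch, with 165, 266 and 684 CPM at 30 °C and 784 and 655 CPM at 4 °C. The groups overlapped for Coch in CPM but not on the TMM scale. Tlx1, a transcription factor of spleen development picked for its small unadjusted p, had 19.2, 10.5 and 18.7 CPM at 30 °C. At 4 °C it had 30.2 and 27.4 CPM. None of the marker genes passed the adjusted threshold in edgeR. DESeq2 called 7 of the 90 it tested, against 0.734% of all genes it tested. Higher at 4 °C were Acta2 and Tagln of smooth muscle and Cd3d, Cd3e, Cd3g and Trac of T cells, and lower was Ermap of erythroblasts. Without 30 °C replicate 2, DESeq2 called only 3 of all genes. In every tumour the sums of B cell, erythroblast and splenic mesenchyme markers were above that of the epithelial and carcinoma markers. The word tumour is therefore used here as the labels give it, and which tissue was sampled was not tested. The part of the cells marked by these lists in the values below was not tested either.

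Per length of merged exons, Hspa8, which encodes the constitutive cytosolic Hsp70 (Hsc70), had the highest mean level of the 10 genes, at 463 ± 153 CPM per kilobase (SD, n = 5 tumours), above 99.2% of 15999 genes with a length. Hspa5 (BiP) followed with 185 ± 24.7 CPM per kilobase, above 98.1% of genes, and Hsp90aa1, the stress-inducible cytosolic Hsp90, with 128 ± 29.1. Rbm3 was next with 81.5 ± 10.8 CPM per kilobase, above 95.9% of genes. Dnajb1, an Hsp40 that presents substrates to Hsp70, stood at 42.0 ± 16.1 and Cirbp at 21.7 ± 3.67 CPM per kilobase. Transcripts of the remaining stress-inducible genes were less abundant. Hsph1 (Hsp110, an exchange factor for Hsp70) had 14.4 ± 5.89, Hspb1 (the small heat shock protein Hsp25) 13.4 ± 5.13, Hspa1b 11.1 ± 7.45 and Hspa1a 4.48 ± 2.84 CPM per kilobase, the last close to the middle of all genes (49.0% below it). Of the neighbours in this order, only Hsp90aa1 and Rbm3, and Rbm3 and Dnajb1, had ranges over the 5 tumours that did not overlap. The order of Hspa8 over Hspa5 and of Hspa1b over Hspa1a held within each of the 5 libraries although their ranges overlapped, while that of Hsph1 over Hspb1 held in 3. These levels and ranks depend on how reads that match several genes were counted, which is not given. They also depend on the annotation, since the length counts every annotated exon, 7266 bases for Hsph1 and 1031 for Hspb1.

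**Figure D1:**
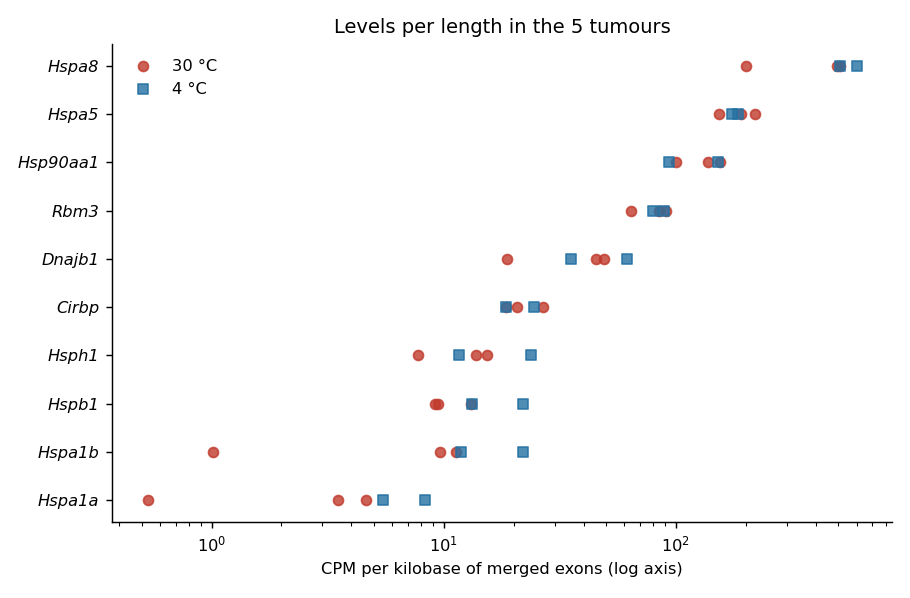
Level of each of the 10 genes in each tumour, in CPM per kilobase of merged exons on a log axis, with 30 °C tumours as circles and 4 °C tumours as squares. Hspa8 lies highest (201 to 602 CPM per kilobase), and the lowest points of Hspa1a and Hspa1b, 0.530 and 1.01, belong to 30 °C replicate 2.

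None of the 10 genes differed between 4 °C and 30 °C past the threshold. In edgeR's quasi-likelihood test 0 of 10 were called at an adjusted p under 0.05, as were 0 of the 16133 genes tested (0%), and 0 of 10 had an unadjusted p under 0.05, against 1090 of all genes (6.76%). DESeq2's Wald test called 0 of 10 at an adjusted p under 0.05, against 0.734% of the genes it tested. At an unadjusted p under 0.05 it had 1 of 10, Hspa1a (adjusted p = 0.53 in DESeq2), against 7.83% of the genes it tested. By sign, 6 of the 10 fold changes were positive at 4 °C (Hspa1a, Hspa1b, Hspa8, Hsph1, Hspb1 and Dnajb1) and 4 negative (Cirbp, Rbm3, Hspa5 and Hsp90aa1), beside 8182 positive and 7951 negative of all genes. The CPM of the groups did not overlap, with both 4 °C tumours above all 30 °C tumours, for 4 of 10 genes (Hspa1a, Hspa1b, Hspa8 and Hspb1), where 11.0% of all genes tested showed this. No member had both 4 °C tumours below all 30 °C tumours, which 5.41% of all genes showed. On TMM-scaled CPM the count was 3 of 10, without Hspb1, against 12.2% of all genes. With 3 against 2 tumours there are 10 splits, and an exact permutation test cannot give a two-sided p below 0.2.

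Neither gene of the cold-inducible pair separated the groups. Cirbp (ENSMUSG00000045193.13; GRCm38 chr10:80165985-80172786, plus strand) had 48.2, 53.6 and 69.5 CPM at 30 °C and 48.2 and 63.5 CPM at 4 °C. Both 4 °C tumours thus lay within the range of the 30 °C tumours. The means were 57.1 ± 11.1 CPM (SD, n = 3) and 55.8 ± 10.8 CPM (SD, n = 2), and the log2 fold change was −0.17 (SE 0.26, 95% interval −0.80 to 0.47, adjusted p = 0.92 in edgeR). It turned to 0.046 without 4 °C replicate 1. Rbm3 (ENSMUSG00000031167.16; chrX:8138975-8145880, minus strand) had 426.0, 299.6 and 398.8 CPM at 30 °C and 416.6 and 372.5 CPM at 4 °C, and its low value belonged to 30 °C replicate 2. After TMM scaling the 5 values closed up to 396, 407 and 354 at 30 °C and 386 and 361 at 4 °C, so that the groups overlapped on either scale. The log2 fold change of Rbm3 was −0.046 (SE 0.17, 95% interval −0.45 to 0.36, adjusted p = 0.97 in edgeR), the narrowest interval of the 10 genes, and its sign turned with no scaling factors (0.074). Rbm3 was also the steadiest of the 10 genes across tumours, with a ratio of the highest to the lowest CPM of 1.42, smaller than in all but 4.17% of genes tested, and that of Cirbp was 1.44 (5.002% of genes lower), where the median of all genes was 2.05. On the TMM scale the ratio was 1.15 for Rbm3 and 1.63 for Cirbp. Reads of Rbm3 can be shared with Gm48583 (163 to 289 counts), Gm10156 (160 to 262 counts) and Rbm3-ps (51 to 126 counts), since 5.36% of the 100-base windows of its transcripts also occur in transcripts of these genes, and Rbm3os, annotated on the other strand, overlaps it. None of the windows of Cirbp were shared.

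Hspa1a and Hspa1b, the neighbouring single-exon genes of the inducible cytosolic Hsp70, varied most between tumours. Hspa1a (chr17:34969190-34972156, minus strand) had 181, 26 and 278 counts at 30 °C and 459 and 262 counts at 4 °C. In CPM these were 10.4, 1.57 and 13.7 at 30 °C and 24.7 and 16.2 at 4 °C, and every 4 °C tumour lay above every 30 °C tumour. The low value of 30 °C replicate 2 (95% Wilson interval 1.07 to 2.30 CPM, counting error only) was below that of 30 °C replicate 1 (8.95 to 11.97 CPM) by more than counting error. The log2 fold change was 1.26 (SE 0.64, 95% interval −0.30 to 2.82, unadjusted p = 0.0956, adjusted p = 0.78 in edgeR), and without 30 °C replicate 2 it was 0.81. Hspa1b (chr17:34956436-34959238, minus strand) followed the same order of tumours, with 27.1, 2.84 and 31.6 CPM at 30 °C and 61.5 and 33.2 CPM at 4 °C. The groups did not overlap, but 4 °C replicate 2 lay only just above 30 °C replicate 3. For Hspa1b the log2 fold change was 1.22 (SE 0.77, 95% interval −0.70 to 3.14, adjusted p = 0.82 in edgeR) and 0.74 without 30 °C replicate 2. The exact permutation test of log2 TMM-scaled CPM gave the smallest possible p of 0.2 for either gene. The ratio of the highest to the lowest CPM over the 5 tumours was 15.7 for Hspa1a and 21.6 for Hspa1b, above that of 97.8% and 98.3% of genes tested. After TMM scaling the ratios were still 10.7 and 14.8.

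The counts of Hspa1a and Hspa1b cannot be fully separated. Of the 100-base windows in the transcripts of Hspa1a, 56.5% also occur in transcripts of other genes, 1350 of 2868 in Hspa1b, and for Hspa1b the share was 49.9%. How reads that match both genes were counted is not given in the sources used here, so the split between the genes is uncertain. Hspa1a counts were 38.3%, 55.3% and 43.3% of those of Hspa1b at 30 °C and 40.1% and 48.7% at 4 °C, and the mean log2 ratios, −1.15 ± 0.27 and −1.18 ± 0.20, differed by −0.029 (exact permutation p = 1). The gene Gm20481, annotated across Hspa1a on the other strand, had 0 counts in every tumour.

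**Figure D2:**
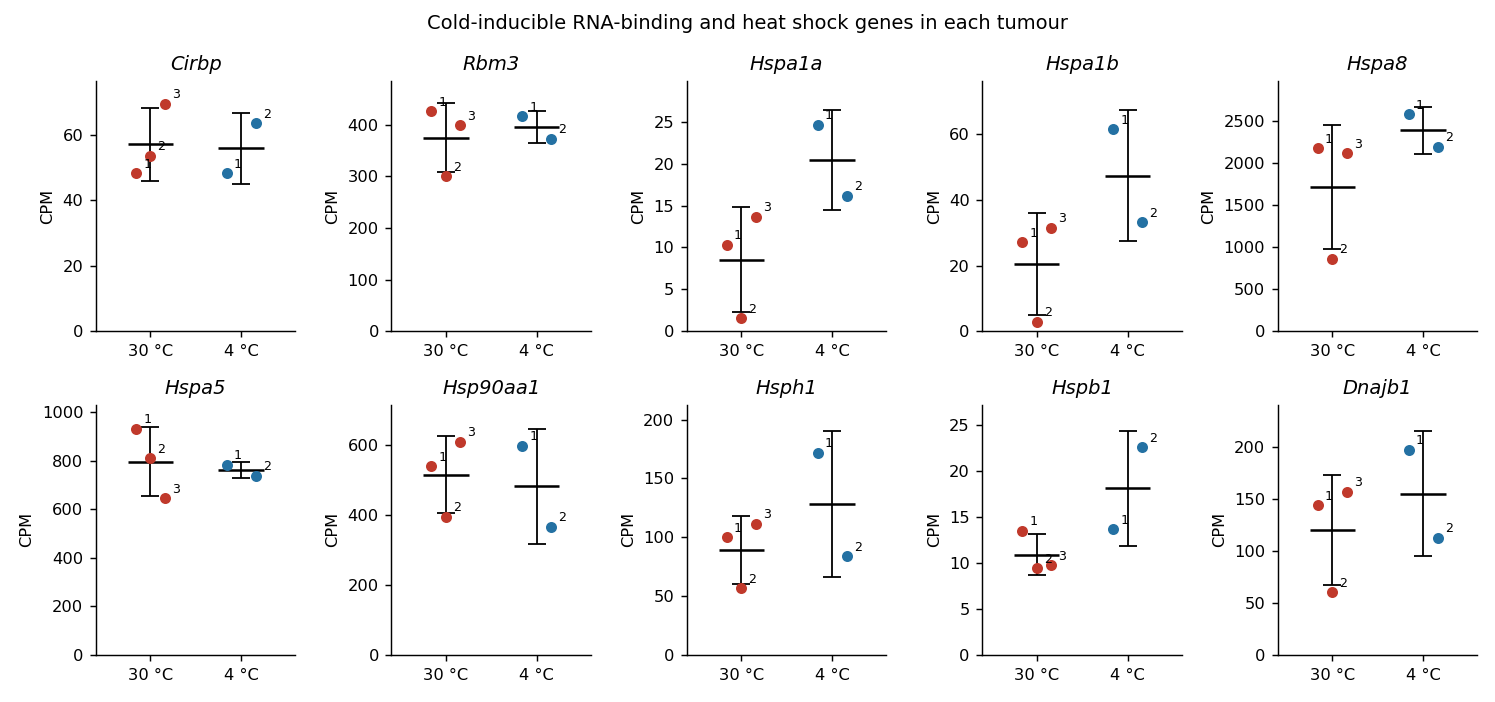
CPM of each gene in each tumour, with the replicate number beside each point, the group mean as a horizontal bar and 1 SD as whiskers (n = 3 at 30 °C, n = 2 at 4 °C), each axis starting at 0. The groups do not overlap for Hspa1a, Hspa1b, Hspa8 and Hspb1, and 30 °C replicate 2 is the lowest of the 5 tumours for 7 of the 10 genes.

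Hspa8 (chr9:40800984-40810087, plus strand), whose product serves folding, transport and clathrin uncoating in unstressed cells, had 2180, 865 and 2119 CPM at 30 °C and 2590 and 2198 CPM at 4 °C. The groups did not overlap, and the distance between 4 °C replicate 2 and the higher 30 °C tumours was small beside the gap to 30 °C replicate 2. After TMM scaling the values were 2029, 1175 and 1880 at 30 °C and 2397 and 2132 at 4 °C, which also did not overlap. The log2 fold change was 0.42 (SE 0.26, 95% interval −0.21 to 1.05, adjusted p = 0.82 in edgeR, exact permutation p = 0.2) and 0.20 without 30 °C replicate 2. Hspa8 alone held 49.3%, 33.9% and 50.8% of the counts of the 10 genes at 30 °C and 52.8% and 54.8% at 4 °C. The 10 genes together made up 0.442%, 0.255% and 0.417% of all counts at 30 °C and 0.491% and 0.401% at 4 °C, and the groups overlapped. Of the windows of Hspa8, 28.5% occur in other genes, chiefly the copy Gm15459 (26 to 95 counts), and small nucleolar RNA genes overlap its exons.

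Hspa5 (chr2:34771970-34777547, plus strand), the major Hsp70 of the ER lumen and a marker of the unfolded protein response, was ordered differently from Hspa8 across tumours. It had 931, 810 and 645 CPM at 30 °C and 784 and 737 CPM at 4 °C, both within the 30 °C range. On the TMM scale 30 °C replicate 2 was the highest of the 5 tumours, with values of 866, 1100 and 573 at 30 °C and 725 and 715 at 4 °C. The log2 fold change was −0.23 (SE 0.29, 95% interval −0.94 to 0.47, adjusted p = 0.90 in edgeR) and −0.011 without 30 °C replicate 2, the library in which acinar transcripts were most abundant. None of its windows were shared with other genes.

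Hsp90aa1 (chr12:110690605-110702728, minus strand), which folds kinases and steroid receptors, had 541, 395 and 611 CPM at 30 °C and 599 and 367 CPM at 4 °C. Here the 4 °C tumours held the lowest value and one of the highest. On the TMM scale the 30 °C tumours lay close together, at 503, 537 and 542, and the 4 °C tumours lay on either side of them, at 554 and 356. The log2 fold change was −0.21 (SE 0.23, 95% interval −0.78 to 0.35, adjusted p = 0.88 in edgeR), and it was 0.058 without 4 °C replicate 2. Of its windows 38.0% were shared with other genes, among them Gm12346 (78 to 128 counts).

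Hsph1 (chr5:149614287-149636376, minus strand) had 100.3, 56.5 and 111.4 CPM at 30 °C and 172.0 and 84.1 CPM at 4 °C, so that 4 °C replicate 1 was the highest tumour and 4 °C replicate 2 fell inside the 30 °C range. Its log2 fold change was 0.43 (SE 0.30, 95% interval −0.30 to 1.15, adjusted p = 0.83 in edgeR) and −0.13 without 4 °C replicate 1. Dnajb1 (chr8:83608193-83612653, plus strand) showed the same order of tumours as Hsph1, with 144, 60.2 and 158 CPM at 30 °C and 198 and 113 CPM at 4 °C. The log2 fold change of Dnajb1 was 0.30 (SE 0.32, 95% interval −0.47 to 1.07, adjusted p = 0.88 in edgeR), it was 0.085 without 30 °C replicate 2 and −0.11 without 4 °C replicate 1. For both genes a single tumour at 4 °C set the sign.

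Hspb1 (chr5:135887919-135889563, plus strand), a small heat shock protein that binds unfolded proteins without ATP and is found in smooth muscle and other contractile cells as well as in stressed cells, had 13.5, 9.43 and 9.74 CPM at 30 °C and 13.6 and 22.5 CPM at 4 °C. The CPM of the groups barely failed to overlap, since 4 °C replicate 1 lay just above 30 °C replicate 1. On the TMM scale they overlapped, with 12.6, 12.8 and 8.65 at 30 °C and 12.6 and 21.9 at 4 °C. The log2 fold change was 0.61 (SE 0.32, 95% interval −0.16 to 1.37, adjusted p = 0.78 in edgeR), and it ranged from 0.14 without 4 °C replicate 2 to 0.95 without 4 °C replicate 1. The high value of 4 °C replicate 2 went with the highest sum of fibroblast and smooth muscle markers (1571 CPM) and with Cryab, a related small heat shock protein of muscle, at 29.9 CPM, although Cryab was nearly as high in 30 °C replicate 1 (28.1 CPM). The part of these markers in the value was not tested. Of the windows of Hspb1, 44.0% also occur in other genes, chiefly the pseudogene Hsp25-ps1, which had 0 to 5 counts.

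**Figure D3:**
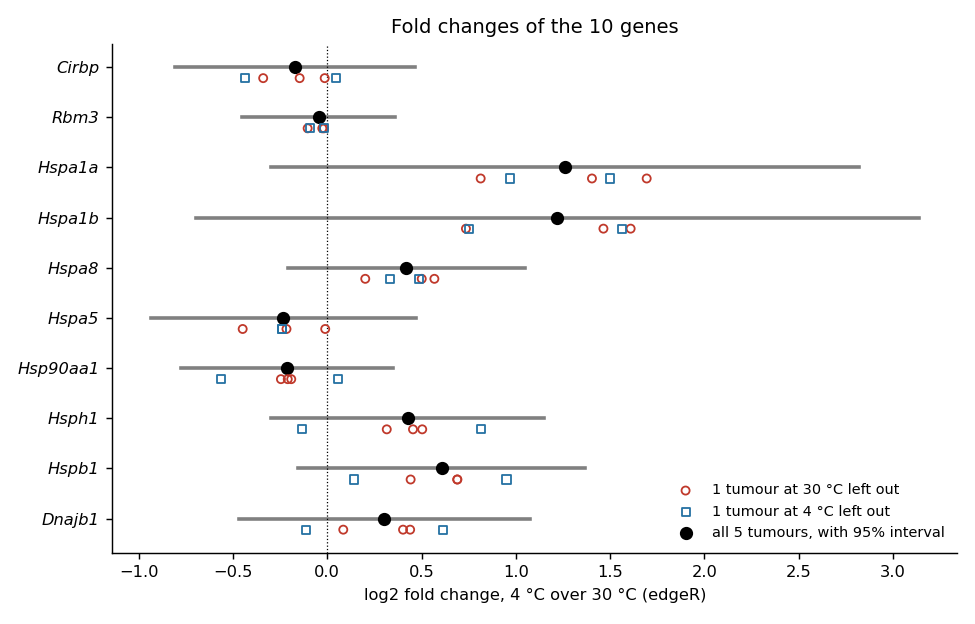
Log2 fold change of each gene, 4 °C over 30 °C, from edgeR on all 5 tumours (black points, lines are 95% intervals) and with 1 tumour left out (open circles for 30 °C, open squares for 4 °C). All 10 intervals include 0, and leaving out 1 tumour turns the sign of Cirbp, Hsp90aa1, Hsph1 and Dnajb1.

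The 10 genes did not vary to the same extent. The ratio of the highest to the lowest CPM was 3.29 for Dnajb1, 3.04 for Hsph1, 2.99 for Hspa8 and 2.39 for Hspb1, above the median of all genes, and 1.66 for Hsp90aa1 and 1.44 for Hspa5, below it. On CPM, 7 of the 10 genes were lowest in 30 °C replicate 2 and 5 were highest in 4 °C replicate 1. On the TMM scale 5 were still lowest in 30 °C replicate 2, the library with the most acinar transcripts.

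Ratios of counts within a library do not depend on the scaling between libraries. Counts of Hspa1a plus Hspa1b, the inducible Hsp70, were 1.72%, 0.510% and 2.14% of those of the constitutive Hspa8 at 30 °C and 3.33% and 2.25% at 4 °C, so that the groups did not overlap. The log2 ratio was −6.34 ± 1.11 (SD, n = 3) and −5.19 ± 0.40 (SD, n = 2), a difference of 1.15 with the smallest p that the exact permutation test allows (0.2). Without 30 °C replicate 2 the difference was 0.51. Counts of Hspa5 were 42.7%, 93.6% and 30.5% of those of Hspa8 at 30 °C and 30.3% and 33.5% at 4 °C, and here 30 °C replicate 2 alone stood apart. The difference of their log2 ratio was −0.64 (exact permutation p = 0.4) and −0.18 without that tumour. Counts of Cirbp were 11.3%, 17.9% and 17.4% of those of Rbm3 at 30 °C and 11.6% and 17.0% at 4 °C. The difference of that log2 ratio was −0.12 (exact permutation p = 0.8).

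**Figure D4:**
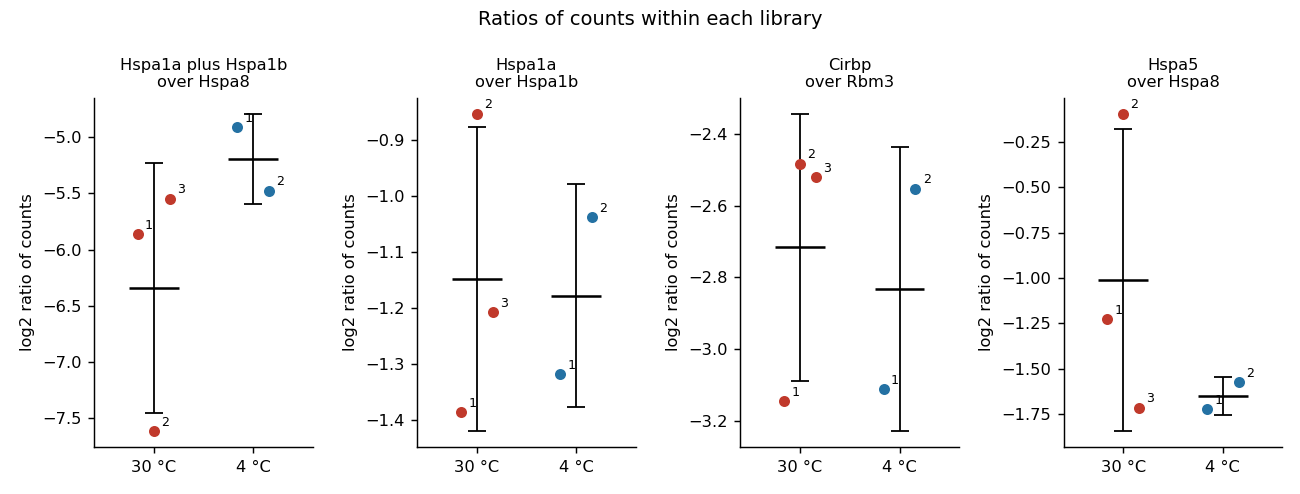
Log2 ratio of counts of the named genes within each library, with the replicate number beside each point, the mean as a bar and 1 SD as whiskers (n = 3 at 30 °C, n = 2 at 4 °C), axes not starting at 0. Only the ratio of Hspa1a plus Hspa1b to Hspa8 separates the groups, and 30 °C replicate 2 is its lowest point, at −7.61.

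Other genes of the same pathways were read from hand-written lists. Of 130 genes of the chaperone and cold shock lists that were tested, 120 are not among the 10, and 53 of these had positive and 67 negative fold changes at 4 °C, with a median log2 fold change of −0.020 beside 0.0064 over all genes tested. None of the 120 passed an adjusted p of 0.05 in edgeR or DESeq2. An unadjusted p under 0.05 in edgeR was found for 4 with positive and 2 with negative fold changes. Of all genes tested, 6.76% had such a p in either direction. Genes named below were picked as the most abundant of a list or for a small unadjusted p.

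Among cold shock domain and cold-inducible genes, 4 of 14 tested had positive and 10 negative fold changes (median log2 −0.075). Carhsp1, a cold shock domain protein that stabilizes mRNA, had 220, 161 and 157 CPM at 30 °C and 125 and 137 CPM at 4 °C, so that both 4 °C tumours were below all others. Its log2 fold change was −0.59 (SE 0.24, unadjusted p = 0.045, adjusted p = 0.73 in edgeR). Ybx1, the most abundant gene of the list and a cold shock domain protein that packages mRNA, had a log2 fold change of 0.049 (SE 0.20). Of the 4 heat shock factors and their regulators tested, 2 were positive and 2 negative. Hsf1 itself had 37.2, 19.7 and 33.3 CPM at 30 °C and 34.7 and 44.0 CPM at 4 °C, and the groups overlapped (log2 fold change 0.30, SE 0.21, adjusted p = 0.83 in edgeR).

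Of 24 genes listed as targets of the heat shock response, 19 had positive and 5 negative fold changes (median log2 0.25), and the 17 that are not among the 10 genes had a median of 0.20. Without 30 °C replicate 2 the median of the 24 was 0.16, and without 4 °C replicate 2 it was also 0.16. Of these genes 0 were called and 2 had an unadjusted p under 0.05 in edgeR, against 6.76% of all genes tested. Serpinh1, the collagen chaperone Hsp47 of the ER, had 121, 50.0 and 88.0 CPM at 30 °C and 124 and 174 CPM at 4 °C, with a log2 fold change of 0.72 (SE 0.28, adjusted p = 0.72 in edgeR). Hspa4l, an Hsp110 relative, went the other way, with 46.8, 35.8 and 48.1 CPM at 30 °C and 37.0 and 25.5 CPM at 4 °C (log2 fold change −0.61, SE 0.21, adjusted p = 0.70 in edgeR). The groups did not overlap for Serpinh1 on either scale, and for Hspa4l they overlapped in CPM through 30 °C replicate 2 but not on the TMM scale, with 43.5, 48.6 and 42.7 at 30 °C and 34.3 and 24.7 at 4 °C. Serpinh1 was lowest in 30 °C replicate 2 and highest in 4 °C replicate 2, as was the sum of the fibroblast and smooth muscle markers (465 and 1571 CPM), and the part of those cells was not tested.

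By family, 8 of 15 genes of the Hsp70 and Hsp110 list had positive fold changes (median log2 0.013), as had 11 of 17 of the Hsp90 list with its co-chaperones (0.13), 6 of 16 cytosolic Hsp40 genes (−0.035), 5 of 6 small heat shock protein genes (0.44) and 4 of 10 Bag and exchange factor genes (−0.031). Leaving out single tumours moved several of these medians. That of the Hsp70 and Hsp110 list was −0.13 without 4 °C replicate 1 and 0.19 without 4 °C replicate 2, and that of the Hsp90 list was 0.056 without 30 °C replicate 2. Hsp90ab1, the constitutive cytosolic Hsp90 and the most abundant of its list, had a log2 fold change of 0.11 (SE 0.17), and Dnaja1, the most abundant cytosolic Hsp40 of the list, one of 0.47 (SE 0.29). Dnajb5 had the smallest unadjusted p of the Hsp40 genes, with 13.0, 9.19 and 14.5 CPM at 30 °C and 19.4 and 17.8 CPM at 4 °C (log2 fold change 0.50, SE 0.19, adjusted p = 0.71 in edgeR). Hspb7, a small heat shock protein of heart and muscle, lay near the lower end of detection, at 1.03, 0.726 and 1.23 CPM at 30 °C and 2.20 and 2.41 CPM at 4 °C (log2 fold change 1.10, SE 0.36, adjusted p = 0.69 in edgeR). Hspb3 had 0 counts in every tumour. The median of the small heat shock protein list rests on few genes, and without 4 °C replicate 2 it was −0.39.

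Genes of ER chaperones and the unfolded protein response, the group of Hspa5, mostly had negative fold changes, 21 of 25 tested with a median log2 of −0.23. In edgeR 0 of them had an unadjusted p under 0.05, against 6.76% of all genes tested. The median was −0.056 without 30 °C replicate 2, the library rich in acinar transcripts, and −0.45 without 30 °C replicate 3. Sel1l, of the machinery that exports misfolded proteins from the ER, had 124, 336 and 128 CPM at 30 °C and 119 and 76.7 CPM at 4 °C, so that both 4 °C tumours were below all others and 30 °C replicate 2 stood far above (log2 fold change −1.31, SE 0.72, adjusted p = 0.80 in edgeR). Hyou1, the Hsp110 of the ER, had a log2 fold change of −0.43 (SE 0.26), and Calr, the lectin chaperone calreticulin and the most abundant gene of the list, one of −0.012 (SE 0.25). Acinar transcripts, from a cell rich in ER, were highest in the same tumour as Sel1l, and their part in the value was not tested.

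**Figure D5:**
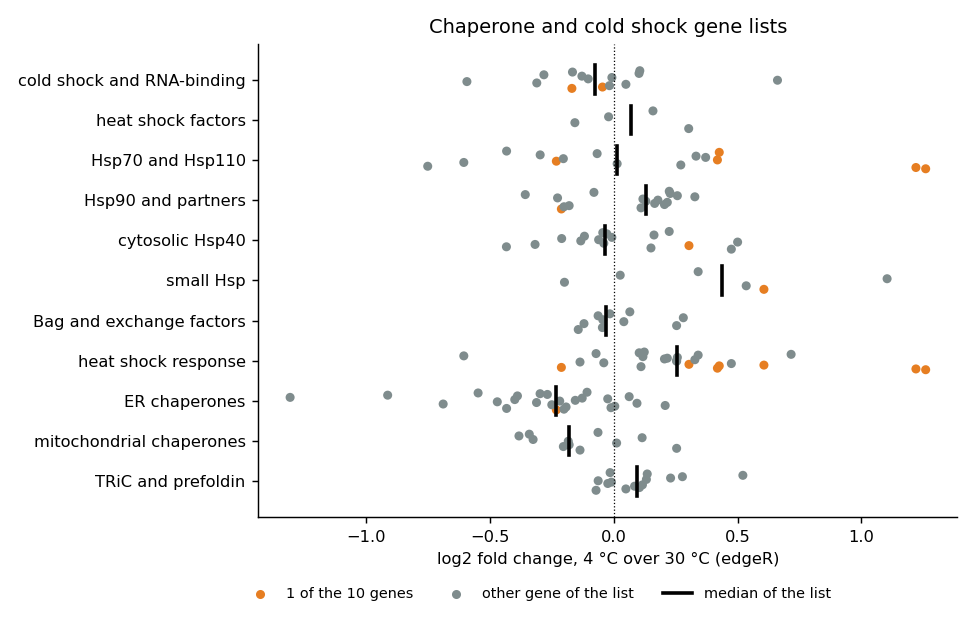
Log2 fold change, 4 °C over 30 °C, of each tested gene in 11 lists (grey), with the 10 genes described here in orange and the median of each list as a black bar. The medians run from −0.23 for ER chaperones to 0.44 for small heat shock proteins, and no gene shown passed the adjusted threshold.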

How the data were processed

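RNA-seq was performed by the authors on total RNA from 5 tumours, and the labels place 3 at 30 °C and 2 at 4 °C for 2 weeks each. Per the paper's methods and the submitters' processing notes, reads were trimmed with fastp, HISAT and RSEM are named without a role, and the authors counted reads per gene with featureCounts on a Gencode annotation of GRCm38. The deposited values are raw counts, whole numbers per gene and tumour without normalization. The strand setting and the treatment of reads that match several genes are not given in the sources used here. Entries without a name (0.0101% to 0.0170% of counts) were left out of library sizes and tests, and of 97 symbols shared by several entries the one with the highest mean carried the symbol. Of the named entries, 27 carry a date in place of a symbol and 26713 had 0 counts in all tumours.

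Counts were analysed in R 4.3.3 with edgeR 4.0.16 (filterByExpr, TMM scaling and the robust quasi-likelihood F-test, without covariates). The p-values were adjusted by Benjamini-Hochberg over all 16133 genes tested and called under 0.05. DESeq2 1.42.0 was an alternative. Standard errors and 95% intervals of fold changes come from the F statistic and its degrees of freedom. Ratios and log2 TMM-scaled CPM (prior count of 2) were compared by exact two-sided permutation tests in scipy 1.17.1. Lengths are of merged exons in GENCODE M21 on GRCm38, and promoter windows are from RefSeq. Depth is 16191708 to 20320525 counts per tumour, and Wilson intervals and the floor of 3 counts cover counting error only. The count model was tested on simulated data. Other scalings, filters, the replicate number as a block, the removal of acinar genes and each tumour left out were tried. Genes outside the 10 are, in each list, the most abundant and those with the smallest unadjusted p. The 10 genes and all lists were chosen with earlier results of these data known. A planned comparison of protein sequences was not made.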

Additional observations from a re-analysis of the deposited data

How the results depend on the processing

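No setting called any of the 10 genes at an adjusted p under 0.05. The sign changed in 6 of 150 recomputed fold changes of the 10 genes, 4 of 24 ratio differences and 20 of 168 list medians. Among the settings, the test without the robust option returned the fold changes of the main test, so its signs could not change. The count of genes at an unadjusted p under 0.05, 0 in the main test, was 1 with DESeq2 and 1 with no scaling factors (Hspa1a both times), 1 in DESeq2 without 30 °C replicate 2 (Hspa1a, a setting chosen after seeing the data), and 0 to 1 with 1 tumour left out (Hspa1a without 30 °C replicate 2, Hspb1 without 4 °C replicate 1, Hsph1 without 4 °C replicate 2). Of all genes, 7.83%, 4.15%, 3.54% and 3.18% to 9.36% had such a p in these settings. Whether replicate numbers pair the tumours is not known. Deviations of same-numbered tumours correlated at −0.25 and 0.26. These values cannot decide it, since the deviations of the 2 tumours at 4 °C mirror each other. With the replicate number as a block the count was 2 (6.06% of all genes), with log2 fold changes of 2.02 for Hspa1a and 2.07 for Hspa1b (adjusted p = 0.20 and 0.26 in edgeR), and 44 of all genes were called, against 0 without the block. With no scaling factors the median of all genes moved to 0.11, 8 genes were called, and medians became 0.24 for the Hsp90 list, 0.093 for cytosolic Hsp40, 0.094 for Bag and exchange factors and −0.055 for mitochondrial chaperones. DESeq2 called 118 genes and 3 without 30 °C replicate 2.

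With tumours left out, fold changes ranged from −0.44 to 0.046 for Cirbp, −0.13 to 0.81 for Hsph1 and −0.11 to 0.61 for Dnajb1, the sign turning without 4 °C replicate 1, and from −0.57 to 0.058 for Hsp90aa1, turning without 4 °C replicate 2. Rbm3 turned with upper-quartile scaling (0.0038) and no scaling factors (0.074). Signs of Hspa1a, Hspa1b, Hspa8, Hspb1 and Hspa5 held in all 15 settings each, with ranges over tumours left out of 0.81 to 1.69, 0.74 to 1.61, 0.20 to 0.57, 0.14 to 0.95 and −0.45 to −0.011. For Hspa1a, Hspa1b and Hspa8 the groups did not overlap on either scale, so leaving out a tumour was all but bound to keep the sign. The difference of the log2 ratio of Hspa1a to Hspa1b ranged from −0.17 to 0.12 (0.12 without 30 °C replicate 2, 0.11 without 4 °C replicate 1), and that of Cirbp to Rbm3 from −0.40 to 0.16 (0.00047 and 0.16). With tumours left out, medians turned sign for small heat shock proteins (−0.39 to 0.97), TRiC and prefoldin (−0.033 to 0.13), heat shock factors (−0.074 to 0.19), the Hsp70 list (−0.13 to 0.19), cytosolic Hsp40 (−0.075 to 0.033), Bag and exchange factors (−0.058 to 0.085) and immediate early genes (−0.049 to 0.45). They kept it for the Hsp90 list (0.056 to 0.21), heat shock targets (0.16 to 0.34), ER (−0.45 to −0.056), mitochondrial (−0.22 to −0.13) and cold-inducible genes (−0.084 to −0.049), the last turning with no scaling factors (0.029). The cause of these shifts was not tested. With a tumour at 4 °C left out, the other is assumed to vary like the 30 °C group. With 1 tumour left out, the CPM of the groups did not overlap, higher at 4 °C, for 4 to 6 of the 10 genes. Of all genes, 11.7% to 26.8% showed this. The 4 genes separated with all tumours stay so by necessity. Separated and lower at 4 °C were 0 to 1 of the 10 genes, against 6.90% to 17.5% of all genes. These were Hspa5 without 30 °C replicate 3 and Hsp90aa1 without 4 °C replicate 1.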

Other observations

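Chaperones outside the cytosol and the ER, and genes of acute stimulation, were measured beside the 10 genes. Of mitochondrial chaperones and proteases, 8 of 11 tested had negative fold changes at 4 °C (median log2 −0.18). Hspd1, the mitochondrial Hsp60, had 365, 216 and 330 CPM at 30 °C and 335 and 259 CPM at 4 °C, and its partner Hspe1 (Hsp10) had 182, 108 and 171 CPM at 30 °C and 186 and 204 CPM at 4 °C. The groups thus overlapped for Hspd1 and did not for Hspe1, whose log2 fold change was 0.25 (SE 0.17, adjusted p = 0.83 in edgeR). Of the subunits of the cytosolic chaperonin TRiC and of prefoldin, which hands it unfolded actin and tubulin, 9 of 14 had positive fold changes (median log2 0.093). Pfdn5, a prefoldin subunit, had 166, 110 and 196 CPM at 30 °C and 198 and 283 CPM at 4 °C, with a log2 fold change of 0.52 (SE 0.21, adjusted p = 0.74 in edgeR).

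Immediate early genes, which respond within minutes to stimulation and to tissue handling, had positive fold changes in 12 of 14 cases (median log2 0.15). In edgeR 0 of these had an unadjusted p under 0.05, against 6.76% of all genes tested. The median was −0.049 without 30 °C replicate 2, −0.033 without 4 °C replicate 2 and 0.45 without 30 °C replicate 1, so its sign rests on single tumours. Their summed level was 1199, 541 and 1014 CPM at 30 °C and 1006 and 1201 CPM at 4 °C, lowest in 30 °C replicate 2 as were Hspa1a and Hspa1b. Jund, the most abundant gene of the list, had a log2 fold change of 0.34 (SE 0.18, adjusted p = 0.78 in edgeR). Their relation to the heat shock genes was not tested.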
